A study of Homo sapiens with 16 samples.

Results

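The genes described here moved the same way in the T-ALL cell lines Jurkat and HSB-2 when USP7 was partly silenced with either of 2 hairpins. A gene was a member when it was called in the additive fit (8 USP7 shRNA libraries against 8 wild-type and scrambled libraries, with the cell line as a term, adjusted p under 0.05) and when, within each line, all 4 shRNA libraries lay above, or all 4 below, all 4 control libraries. Of 23063 genes tested, 592 met the rule (2.57%), of which 259 were higher (1.12%) and 333 lower (1.44%) with shRNA. The expression change of a member is therefore what chose it, and it is given as a description. Which direction held more genes depended on the setting. RLE scaling in place of TMM gave 313 shared higher and 264 shared lower genes. DESeq2 gave 330 and 271, and an offset for GC content and length gave 377 and 241.

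RNA-seq was performed in 16 libraries, 2 in each of 8 groups. Jurkat and HSB-2 are established human cell lines from T-lineage acute lymphoblastic leukemia (T-ALL). Both belong to the TAL1 subtype, and their USP7 gene is not mutated. Each line was profiled as wild-type, after a scrambled control (named an siRNA in the sample labels and an shRNA in the series description), and after transduction with lentivirus carrying shRNA-4057 or shRNA-4058, which target different exons of USP7. Transduced cells were populations rather than clones, enriched by GFP sorting or puromycin, and the lines share neither patient nor genotype. The labels do not say whether the 2 libraries of a group came from separate cultures. The p-values of the hairpin and scrambled comparisons therefore measure a spread between libraries of a group that may be technical. Those of the additive fit also count differences between hairpins, between kinds of control and between the effects in the 2 lines as error. They still treat each library as a replicate.

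USP7 is a deubiquitylating enzyme. It removes ubiquitin from client proteins such as MDM2 and p53, and its gene is recurrently mutated in childhood T-ALL. TAL1 is a basic helix-loop-helix factor that pairs with the E proteins E2A and HEB, which bind the E-box (CANNTG) and drive thymocyte genes such as RAG1 and PTCRA. Receptors such as CCR7 and S1PR1 steer T cells between lymph node and blood, and KLF2 and FOXO1 are known as transcription factors of that program.

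Total counts were 76602847 to 235467749 per library, and 3 counts, the limit that a count of 0 allows, were worth 0.0127 to 0.0392 CPM (CPM, counts scaled to the library total with TMM factors, the unit of all levels below). Such limits cover counting error only. Markers of T-ALL cells (CD3D, CD7, TAL1 and others) were over 1 CPM in 10 of 10 cases in both lines. Of 20 markers of B, myeloid, erythroid and epithelial cells, 1 was over 1 CPM in each line, CD79A in Jurkat and PAX5 in HSB-2, and 4 to 6 were at 0. Their summed level was 38.3 to 60.6 CPM in Jurkat controls and 25.8 to 26.8 CPM with shRNA, and 1.62 to 4.00 and 3.67 to 5.37 CPM in HSB-2; its part in the results was not tested. In these bulk samples a change in every cell and a change in the share of expressing cells cannot be told apart.

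The targeted gene was examined first. In Jurkat, USP7 was at 396 and 386 in wild-type, 384 and 387 in scrambled, 140.0 and 145 in shRNA-4057 and 244 and 242 in shRNA-4058 libraries (CPM). In HSB-2 it was at 237 and 243 in wild-type, 227 and 220.1 in scrambled, 144 and 149 in shRNA-4057 and 162 and 156 in shRNA-4058 libraries. All shRNA libraries were below all controls of their line, and shRNA-4057 left less USP7 than shRNA-4058 in both lines (adjusted p = 4.54e-14 in Jurkat and 0.0146 in HSB-2, edgeR). Relative to the controls, shRNA cells of both hairpins kept 49.6% of USP7 in Jurkat and 65.8% in HSB-2 as fitted. The additive fit gave a log2 fold change -0.81 ± 0.11, adjusted p = 0.000542 (here and below, ± is the SE and adjusted p-values are from edgeR), and the effects of the lines differed by 0.41 ± 0.20, adjusted p = 0.121. USP7 was rank 46 of the 592 shared genes by adjusted p. The gene (chromosome 16, 8985954 to 9069185, minus strand, GRCh37) overlaps the antisense transcript USP7-AS1; the strand setting of the counting was not stated, so reads of the pair cannot be told apart.

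The additive fit called 1954 genes (8.47%), 850 higher (3.69%) and 1104 lower (4.79%). With RLE scaling more were called higher (969) than lower (898). Of the 1954, 1362 were left out of the shared set, 1361 because they overlapped with the controls in at least 1 line and 1, GNLY, because it lay outside the controls in opposite directions. Changes in the shared set were mostly small. The median log2 fold change was 0.55 for the 259 higher genes and -0.39 for the 333 lower genes, against -0.02 over all genes tested. In the additive fit 61 shared genes were at least 2-fold higher and 30 at least 2-fold lower, and 26 and 10 reached 2-fold with each hairpin in each line. The number of calls rests on counting each library as a replicate: with the 2 libraries of each group summed, CCR7 was the 1 gene called (edgeR, adjusted p = 0.0179). In that fit 541 of the 592 shared genes had an unadjusted p under 0.05, of 1998 among all genes. The same contrast on the same counts chose the 592, so this share is a description only. Without Jurkat scrambled replicate 2 the genes called lower fell to 644, without HSB-2 shRNA-4058 replicate 2 to 689, and without HSB-2 scrambled replicate 2 the genes called higher fell to 545; without HSB-2 WT replicate 1 the shared higher genes numbered 411.

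The shared response was the smaller part of the response of each line. In Jurkat 6581 genes (28.5%) had all shRNA libraries outside all controls and in HSB-2 7134 (30.9%). Outside in both lines in the same direction were 612 genes (2.65%), which is 9.30% of the Jurkat and 8.58% of the HSB-2 genes, and 1714 (7.43%) were outside in opposite directions. Fitted by line, the test called 5755 genes for Jurkat (25%, with 10.2% higher and 14.8% lower) and 6206 for HSB-2 (26.9%, with 13.8% higher and 13.1% lower), and of the 1899 called in both, 490 went the same way and 1409 the opposite way. Across the 23063 genes, which are not independent replicates, the effects of the lines had a Pearson correlation of -0.12 (Spearman -0.23). For shRNA-4057 the Pearson correlation was 0.027 and for shRNA-4058 it was -0.23. Genes of opposite direction outnumbered those of the same direction under every alternative tried.

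**Figure D1:**
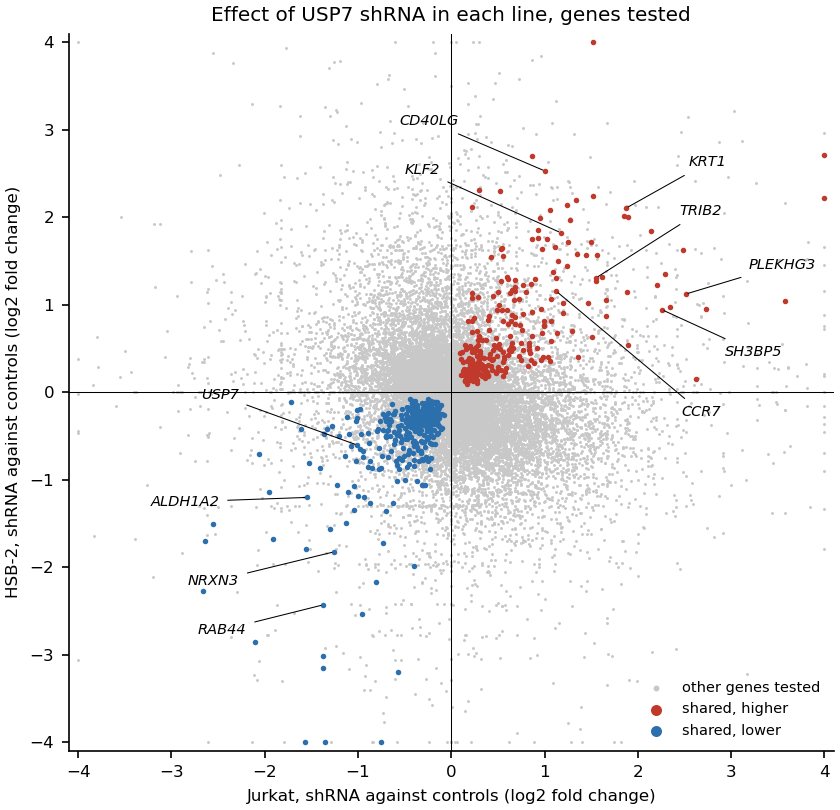
Each point is 1 of the 23063 genes tested, with the log2 fold change of the 4 shRNA against the 4 control libraries in Jurkat (x axis) and in HSB-2 (y axis), and values past 4 drawn at the edge. The 259 shared higher genes (red) and 333 shared lower genes (blue) lie in 2 opposite quadrants by their rule, while 1714 genes outside the controls in both lines lie in the other quadrants, where the lines went opposite ways.

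Among receptors, CCR7, which binds the lymph node chemokines CCL19 and CCL21, rose by a similar amount with each hairpin in each line. In Jurkat, CCR7 was at 3.58 and 3.26 in wild-type, 3.43 and 3.29 in scrambled, 7.51 and 7.47 in shRNA-4057 and 6.99 and 7.66 in shRNA-4058 libraries (CPM). The HSB-2 levels were 52.1 and 50.4 in wild-type, 41.4 and 40.7 in scrambled, 100.1 and 97.3 in shRNA-4057 and 107 and 106 in shRNA-4058 libraries. The level was higher in HSB-2 than in Jurkat in all groups, and within each line the lowest shRNA library lay above the highest control. The hairpin effects (log2 fold change against the controls of the line, shRNA-4057 then shRNA-4058) were 1.14 and 1.11 in Jurkat and 1.11 and 1.22 in HSB-2, with a log2 fold change 1.14 ± 0.059, adjusted p = 6.44e-09 in the additive fit, and scrambled and wild-type Jurkat cells did not differ detectably (adjusted p = 0.826). In HSB-2, scrambled cells had less CCR7 than wild-type cells (log2 difference -0.32, adjusted p = 8.18e-06).

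S1PR1, the receptor that lets lymphocytes leave lymph nodes, also rose. In Jurkat, S1PR1 was at 41.1 and 38.0 in wild-type, 14.5 and 13.9 in scrambled, 101 and 100.2 in shRNA-4057 and 68.1 and 71.1 in shRNA-4058 libraries (CPM). HSB-2 had 18.9 and 18.9 in wild-type, 10.01 and 9.65 in scrambled, 27.1 and 26.4 in shRNA-4057 and 25.7 and 26.0 in shRNA-4058 libraries. Groups did not overlap in either line, but scrambled cells were below wild-type cells. Thus shRNA cells had 2.15 times the S1PR1 of wild-type and 5.996 times that of scrambled cells in Jurkat, and 1.39 and 2.67 times in HSB-2 (log2 fold change 1.27 ± 0.24, adjusted p = 0.00447). CXCR3, a receptor of interferon-induced chemokines, was at 1.51 to 2.61 CPM in the controls and 3.41 to 9.49 with shRNA in Jurkat, and 0.241 to 1.34 and 2.15 to 2.61 in HSB-2 (1.56 ± 0.32). ITGB7, the beta chain of a gut-homing integrin, was at 7.35 to 12.5 CPM in the controls and 13.0 to 30.4 with shRNA in Jurkat, and 14.6 to 56.6 and 90.9 to 109 in HSB-2 (1.33 ± 0.29); it overlaps ZNF740 on the other strand. In Jurkat both moved further with shRNA-4057 than with shRNA-4058 (log2 difference 1.47 for CXCR3 and 1.17 for ITGB7, adjusted p = 8.69e-09 and 1.4e-14).

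Of the 21 integrins and homing receptors tested, 9 rose, 2 fell and 10 did not pass the test, with a median log2 fold change of 0.46 (-0.02 over all genes), where 3.69% of all genes tested were called higher and 4.79% lower. Shared were 6 risers, the 4 above with S1PR4 (0.52 ± 0.14) and ITGA1 (1.31 ± 0.31), and 1 faller, ITGA4, the alpha-4 integrin chain (-0.61 ± 0.10). CCR4, ITGB2 and GPR183 rose without meeting the shared rule. The count of risers was 6 with wild-type cells alone as controls and 1 with shRNA-4058 alone, where S1PR1, CXCR3 and ITGB7 were not called; over all genes 383 and 343 were called higher under these settings, against 850. List and members were chosen with earlier results of these data known.

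Transcription factors of the T lineage were examined next. In Jurkat, KLF2 was at 33.2 and 38.0 in wild-type, 12.6 and 12.7 in scrambled, 60.3 and 54.4 in shRNA-4057 and 51.1 and 51.7 in shRNA-4058 libraries (CPM). For HSB-2 the levels were 6.25 and 5.41 in wild-type, 2.59 and 2.87 in scrambled, 19.7 and 18.0 in shRNA-4057 and 11.5 and 11.3 in shRNA-4058 libraries. KLF2, a zinc finger factor that acts on S1PR1, was therefore higher in all shRNA libraries than in all controls (log2 fold change 1.49 ± 0.26, adjusted p = 0.00241), and scrambled cells had less KLF2 than wild-type cells in both lines (log2 difference -1.49 in Jurkat and -1.11 in HSB-2). Against wild-type cells alone the mean shRNA level was 1.53 times theirs in Jurkat and 2.60 times in HSB-2. FOXO1, a forkhead factor upstream of KLF2 and IL7R, was at 6.56 to 12.6 CPM in the controls and 14.9 to 25.4 with shRNA in Jurkat, and 20.1 to 25.1 and 26.7 to 30.9 in HSB-2 (0.71 ± 0.17). ETS1 and NFATC3 rose by less (0.37 ± 0.068 and 0.26 ± 0.053), and RUNX3 and TBX21 were called higher with overlapping libraries. RUNX1, MYB and ETS2 were called lower and also overlapped. Of 27 T-lineage transcription factors, 6 rose, 3 fell, 18 did not pass the test, and 4 of the risers were shared. Among all genes tested, 3.69% were called higher and 4.79% lower.

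CD40LG, the ligand by which helper T cells activate CD40, rose from different baselines. In Jurkat, CD40LG was at 20.2 and 18.4 in wild-type, 15.3 and 15.5 in scrambled, 33.3 and 34.5 in shRNA-4057 and 36.3 and 34.9 in shRNA-4058 libraries (CPM). In HSB-2 it was at 0.960 and 0.852 in wild-type, 0.273 and 0.268 in scrambled, 3.06 and 3.49 in shRNA-4057 and 3.50 and 3.35 in shRNA-4058 libraries. The groups were separate in each line, and the rise was larger in HSB-2 (2.53) than in Jurkat (1.002; difference 1.53 ± 0.38, adjusted p = 0.00507). LINC00892 (chromosome X, 135721694 to 135724592), a long noncoding RNA that ends before the start of CD40LG (chromosome X, 135730317 to 135742549) on the same strand, was at 0.445 to 0.915 CPM in the controls and 1.22 to 1.85 with shRNA in Jurkat, and 0.632 to 1.88 and 5.02 to 5.98 in HSB-2 (log2 fold change 1.71 ± 0.26, adjusted p = 0.00103). The lines did not differ detectably for it (adjusted p = 0.132). Of 33 T-lineage surface and TCR signalling genes, 6 rose and 2 fell, where 3.69% of all genes tested were called higher and 4.79% lower. The shared ones were CD52 (0.92 ± 0.17), the costimulatory receptor CD27 (0.82 ± 0.16; it overlaps TAPBPL and CD27-AS1) and the adaptor SLA2 (0.46 ± 0.089). CD6, CD53 and TRAT1 rose and ZAP70 and IL7R fell without meeting the shared rule; IL7R was at 7.59 to 10.3 CPM in the controls and 2.29 to 5.17 with shRNA in Jurkat, and 0.00 to 0.0219 and 0.00 to 0.00481 in HSB-2. The count of risers was 5 to 9 with 1 library left out, 3 against wild-type cells alone and 2 with shRNA-4058 alone.

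Ranked by the weakest of the 4 hairpin effects, the first riser was KRT1, a keratin of the epidermis. In Jurkat, KRT1 was at 18.5 and 17.9 in wild-type, 13.0 and 13.1 in scrambled, 63.8 and 63.1 in shRNA-4057 and 51.5 and 51.3 in shRNA-4058 libraries (CPM). The HSB-2 levels were 3.49 and 2.53 in wild-type, 1.34 and 1.09 in scrambled, 8.95 and 9.41 in shRNA-4057 and 9.73 and 8.29 in shRNA-4058 libraries. The 4 hairpin effects were 2.04 and 1.74 in Jurkat and 2.24 and 2.23 in HSB-2, and the shRNA level was 3.15 times that of wild-type cells in Jurkat and 3.02 times in HSB-2 (log2 fold change 1.99 ± 0.18, adjusted p = 1.43e-05). 

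The kinase-like protein TRIB2, a known gene of the TAL1 circuit, rose in both lines. In Jurkat, TRIB2 was at 151 and 151 in wild-type, 103 and 102 in scrambled, 389 and 385 in shRNA-4057 and 360.1 and 358 in shRNA-4058 libraries (CPM). HSB-2 had 267 and 280.3 in wild-type, 181 and 180.1 in scrambled, 471 and 461 in shRNA-4057 and 658 and 663 in shRNA-4058 libraries. No shRNA library overlapped a control, and the hairpins differed in HSB-2, where shRNA-4058 gave the higher level (adjusted p = 3.57e-11; log2 fold change 1.43 ± 0.13, adjusted p = 8.23e-06 in the additive fit). LYL1, a helix-loop-helix relative of TAL1, was at 1.30 to 1.81 CPM in the controls and 2.32 to 2.9997 with shRNA in Jurkat, and 7.32 to 11.4 and 14.4 to 20.6 in HSB-2 (0.78 ± 0.13). In the other direction went ALDH1A2, which makes retinoic acid and is a known TAL1-activated gene. In Jurkat, ALDH1A2 was at 467 and 459 in wild-type, 870.4 and 853 in scrambled, 187 and 186 in shRNA-4057 and 265 and 268 in shRNA-4058 libraries (CPM). For HSB-2 the levels were 2.81 and 2.26 in wild-type, 4.08 and 3.52 in scrambled, 1.83 and 1.67 in shRNA-4057 and 0.962 and 1.20 in shRNA-4058 libraries. It was abundant in Jurkat and low in HSB-2, and in both lines all shRNA libraries were below all controls (log2 fold change -1.39 ± 0.18, adjusted p = 0.000368); the locus overlaps AQP9 and other transcripts. Of 22 genes of the TAL1 complex and circuit, 2 rose and 3 fell, where 3.69% of all genes tested were called higher and 4.79% lower. RUNX1 and MYB, the other fallers, overlapped the controls. Of 7 genes listed here as E-protein targets (RAG1, RAG2, PTCRA, CD1A, CD1B, CD1E and CD69), RAG1, PTCRA and CD1B fell in the additive fit and none was shared. Fitted by line, 4 of the 7 fell in Jurkat (14.8% of all genes) and none passed the test in HSB-2 (smallest adjusted p = 0.0528). RAG1 was at 20.7 to 26.2 CPM in the controls and 3.53 to 12.6 with shRNA in Jurkat, and 0.0398 to 0.134 and 0.0444 to 0.115 in HSB-2, so HSB-2 gave almost no signal to compare, and leaving out any 1 of Jurkat WT replicate 1 or 2, scrambled replicate 1 or 2 or shRNA-4057 replicate 1 or 2 left 0 called (edgeR; 6 of 7 had an unadjusted p under 0.05 with all libraries). DESeq2, scrambled cells alone as controls and shRNA-4058 alone also gave 0, wild-type cells alone as controls gave 2 and shRNA-4057 alone gave 5.

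**Figure D2:**
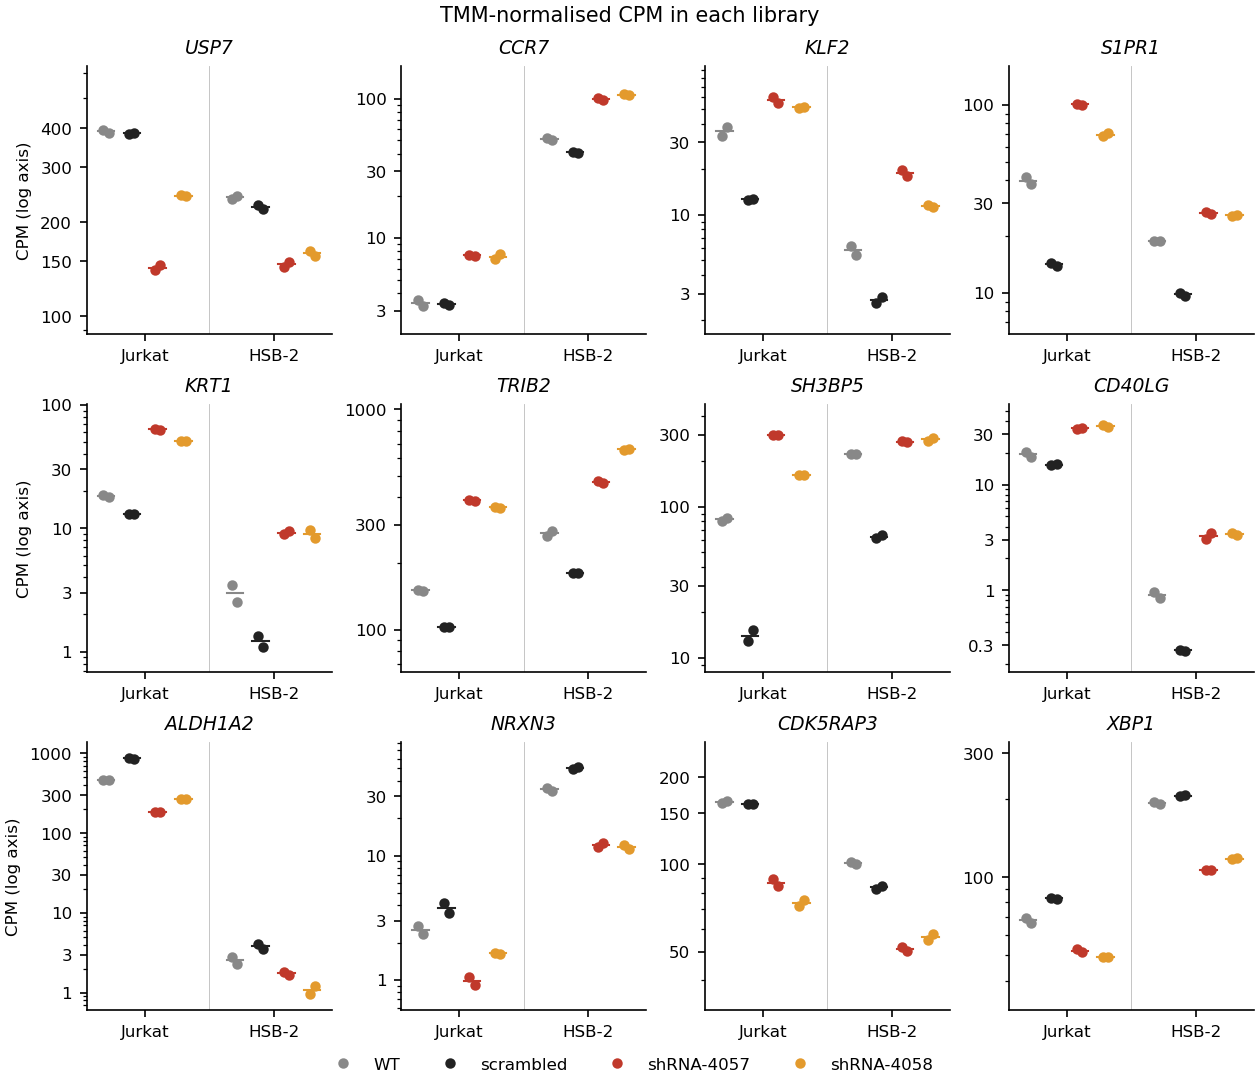
TMM-normalised CPM on a log axis for 12 genes in each of the 16 libraries (points), with the mean of the 2 libraries of each group as a line. Within each line and gene, the 4 USP7 shRNA libraries (red, orange) are all above or all below the wild-type (grey) and scrambled (black) libraries. For KLF2, S1PR1, KRT1, TRIB2, SH3BP5 and CD40LG the scrambled libraries are the lowest in both lines.

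Several signalling proteins were among the 12 leading risers. In Jurkat, SH3BP5 was at 80.2 and 84.9 in wild-type, 12.8 and 15.2 in scrambled, 299 and 301 in shRNA-4057 and 162 and 163 in shRNA-4058 libraries (CPM). In HSB-2 it was at 224 and 224 in wild-type, 62.2 and 64.8 in scrambled, 272 and 269.8 in shRNA-4057 and 275 and 288 in shRNA-4058 libraries. SH3BP5, a partner of the kinase BTK, thus rose (log2 fold change 1.6002 ± 0.42, adjusted p = 0.0264), but it was 2.80 times the wild-type level in Jurkat and 1.23 times in HSB-2, against 16.5 and 4.35 times the scrambled level. It was not called with wild-type cells alone as controls or with shRNA-4058 alone, and it overlaps SH3BP5-AS1. PLEKHG3, which overlaps SPTB on the other strand, was at 0.698 to 2.90 CPM in the controls and 7.21 to 14.3 with shRNA in Jurkat, and 9.90 to 21.5 and 32.8 to 35.3 in HSB-2 (log2 fold change 1.79 ± 0.32, adjusted p = 0.00319). Its rise was larger in Jurkat (2.52) than in HSB-2 (1.12; difference -1.39 ± 0.52, adjusted p = 0.0483).

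The other leading risers were ZFHX3, a homeobox transcription factor (1.36 ± 0.24), the adhesion receptor CEACAM1 (1.49998 ± 0.21), SH3TC1 (1.36 ± 0.27) and TMEM151B (1.07 ± 0.20). CEACAM1 was at 0.619 to 0.778 CPM in the controls and 1.36 to 1.91 with shRNA in Jurkat, and 1.99 to 5.24 and 8.33 to 14.3 in HSB-2. Scrambled cells were below wild-type cells for 9 of the 12 leading risers in Jurkat and for 12 of 12 in HSB-2 (edgeR, adjusted p under 0.05), opposite to the direction of the shRNA. Of the 12, 10 were called under each of 28 alternatives other than the summed libraries; the exceptions were SH3BP5 and TMEM151B.

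Among the lower genes, NRXN3, a neurexin known from synapses, was separate from the controls in both lines. In Jurkat, NRXN3 was at 2.71 and 2.32 in wild-type, 4.13 and 3.47 in scrambled, 1.06 and 0.913 in shRNA-4057 and 1.66 and 1.62 in shRNA-4058 libraries (CPM). The HSB-2 levels were 35.0 and 33.0 in wild-type, 49.7 and 51.1 in scrambled, 11.6 and 12.5 in shRNA-4057 and 12.2 and 11.3 in shRNA-4058 libraries. The shRNA libraries were below both kinds of control (log2 fold change -1.56 ± 0.16, adjusted p = 3.8e-05); many small transcripts lie within this long locus. RAB44, a Rab GTPase, was at 20.1 to 28.9 CPM in the controls and 8.89 to 10.1 with shRNA in Jurkat, and 1.07 to 6.76 and 0.654 to 0.782 in HSB-2 (log2 fold change -1.86 ± 0.33, adjusted p = 0.00307), where HSB-2 scrambled cells (6.38 and 6.76 CPM) stood far above wild-type cells (1.07 and 1.27 CPM). DAB2, an endocytic adaptor, was at 1.58 to 2.98 CPM in the controls and 0.718 to 1.26 with shRNA in Jurkat, and 0.833 to 2.77 and 0.429 to 0.702 in HSB-2 (-1.43 ± 0.26) and was not called against wild-type cells alone. CDK6-AS1 fell (-1.20 ± 0.14); it lies on the other strand of CDK6, and their reads cannot be told apart.

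Another faller was CDK5RAP3, a protein of the UFM1 ligase complex. In Jurkat, CDK5RAP3 was at 163 and 165 in wild-type, 162 and 162 in scrambled, 89.1 and 84.0 in shRNA-4057 and 71.9 and 75.4 in shRNA-4058 libraries (CPM). HSB-2 had 102 and 100.01 in wild-type, 82.3 and 84.5 in scrambled, 51.9 and 50.2 in shRNA-4057 and 54.8 and 57.5 in shRNA-4058 libraries. The groups did not overlap, with effects of -0.91 and -1.15 in Jurkat and -0.85 and -0.71 in HSB-2 (log2 fold change -0.90 ± 0.066, adjusted p = 9.49e-07). The centrosomal protein CEP70 fell by a similar amount (-0.86 ± 0.11), as did NPL, a sialic acid lyase (-0.81 ± 0.17), and NXF3, a relative of the mRNA export factor NXF1 (-0.80 ± 0.14). The protease ADAMTS19 (-1.06 ± 0.16), the choline transporter-like SLC44A5 (-1.09 ± 0.16) and NFE2, a bZIP factor of the erythroid lineage (-1.11 ± 0.23), completed the 12. NFE2 was at 1.10 to 2.21 CPM in the controls and 0.316 to 0.773 with shRNA in Jurkat, and 28.04 to 61.1 and 21.5 to 27.9 in HSB-2, and in HSB-2 its shRNA libraries lay just under wild-type cells. Of the 12 leading fallers, 8 were called under each of the 28 alternatives; RAB44, DAB2, NPL and NFE2 were not.

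**Figure D3:**
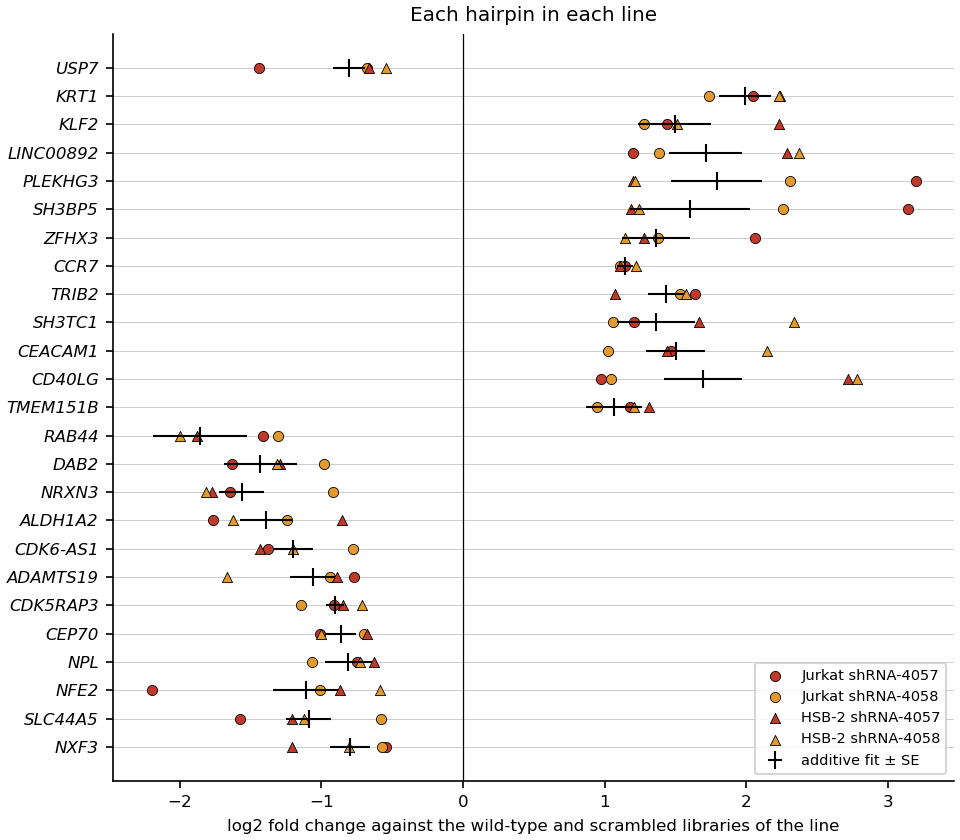
Log2 fold change of each hairpin against the wild-type and scrambled libraries of its line (circles, Jurkat; triangles, HSB-2) for USP7 and the 12 leading risers and 12 leading fallers, with the additive fit and its SE (black). The 4 symbols of CCR7 lie between 1.11 and 1.22, while those of PLEKHG3 and CD40LG separate by line.

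Because E proteins and TAL1 bind E-boxes, the RefSeq promoter windows (GRCh38.p14, 250 bases before the start, a different build from the counts) were searched on both strands for short motifs. The E-box was CANNTG, whose matches include the form CAGCTG and the form CAGGTG in this search. The letters AGATAA stood for sites of the GATA family. The letters TGTGGT stood for RUNX sites. The letters CACCC stood for KLF sites. The first 2 leading risers and the first 2 leading fallers with a window are printed, E-boxes in capitals: KLF2 and LINC00892, which hold none, and DAB2 and NRXN3, which hold 1 each.
KLF2 (chr19:16324576-16324825, plus strand): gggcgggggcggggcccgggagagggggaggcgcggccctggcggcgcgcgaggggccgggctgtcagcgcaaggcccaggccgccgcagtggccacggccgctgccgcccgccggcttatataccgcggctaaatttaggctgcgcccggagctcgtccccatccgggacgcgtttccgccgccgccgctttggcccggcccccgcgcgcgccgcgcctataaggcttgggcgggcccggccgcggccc
LINC00892 (chrX:136639293-136639542, plus strand): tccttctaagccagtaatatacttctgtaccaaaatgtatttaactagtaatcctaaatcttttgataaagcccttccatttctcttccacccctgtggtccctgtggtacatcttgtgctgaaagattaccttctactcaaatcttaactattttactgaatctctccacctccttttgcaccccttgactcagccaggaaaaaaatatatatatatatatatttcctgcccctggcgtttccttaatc
DAB2 (chr5:39424981-39425230, minus strand): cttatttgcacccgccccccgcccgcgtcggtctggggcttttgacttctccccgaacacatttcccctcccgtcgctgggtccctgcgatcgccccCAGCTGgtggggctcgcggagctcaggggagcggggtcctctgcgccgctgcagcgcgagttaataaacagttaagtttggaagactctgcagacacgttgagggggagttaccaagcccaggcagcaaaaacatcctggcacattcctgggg
NRXN3 (chr14:78170123-78170372, plus strand): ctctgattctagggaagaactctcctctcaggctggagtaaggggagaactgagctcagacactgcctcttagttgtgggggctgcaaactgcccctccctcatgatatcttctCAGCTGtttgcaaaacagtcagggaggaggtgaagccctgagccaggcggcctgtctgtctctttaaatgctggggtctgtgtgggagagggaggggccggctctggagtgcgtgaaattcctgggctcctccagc
Windows were found for 193 of the 259 shared higher, 264 of the 333 shared lower and 12698 of the tested genes. An E-box was in 43.5% of the higher, 55.7% of the lower and 54.8% of all tested windows, and in 62.2% of all 27305 windows. CAGCTG was in 9.33%, 15.5%, 13.2% and 13.8% in the same order, CAGGTG in 14.0%, 18.6%, 16.2% and 17.5%, AGATAA in 5.18%, 4.17%, 5.10% and 9.37%, and TGTGGT in 7.77%, 6.06%, 8.49% and 10.9%. CACCC was in 65.8%, 57.2%, 58.5% and 53.7%. Median GC content differed as well, at 68.4%, 64.4%, 64.4% and 58.0%, and its part in these shares was not tested. A match says only that the letters are present.

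Immediate early genes respond quickly to receptor signals. Of 23, 6 rose and 17 did not pass the test (DESeq2 called 10 higher), with a median of 0.58. In the additive fit 3.69% of all genes tested were called higher. Shared were FOS, at 2.36 to 3.55 CPM in the controls and 5.02 to 9.96 with shRNA in Jurkat, and 7.75 to 59.7 and 91.5 to 109 in HSB-2 (log2 fold change 1.47 ± 0.36, adjusted p = 0.0183), and FOSL2 (0.58 ± 0.066). In HSB-2 scrambled cells FOS was far below wild-type cells (7.75 and 8.05 against 58.6 and 59.7 CPM). JUN, DUSP2, ZFP36 and NR4A2 were called with overlap. The count was 4 to 8 with 1 library left out, 11 against wild-type cells alone and 2 with shRNA-4058 alone, where FOS was not called. Of 19 NF-kB target genes, 4 rose; BCL3 (1.22 ± 0.27) and CD40LG were shared, and TNF and LTB were not. Of 15 cytotoxic effector genes, 6 rose, and the granule protein NKG7 was shared, at 5.51 to 8.80 CPM in the controls and 11.4 to 26.1 with shRNA in Jurkat, and 75.8 to 134 and 189 to 237 in HSB-2 (log2 fold change 1.24 ± 0.19, adjusted p = 0.00126). GZMA, KLRD1, KLRB1 and SRGN overlapped the controls in 1 line. For KLRD1 that line was HSB-2, with almost no signal (0.00 to 0.0210 CPM in the controls and 0.00 to 0.0148 with shRNA). GNLY, counted among the 6, went opposite ways in the lines, at 0.0667 to 0.222 CPM in the controls and 0.0264 to 0.0552 with shRNA in Jurkat, and 12.6 to 72.7 and 179 to 188 in HSB-2. This count was 1 without HSB-2 scrambled replicate 1 or 2 and without Jurkat shRNA-4057 replicate 1 or 2, from 2 to 8 without any other library, and 2 against wild-type cells alone.

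The list with the most fallers was that of cholesterol and fatty acid synthesis. Of 30 genes, 13 fell and 17 did not pass the test (DESeq2 called 14 lower), with a median of -0.43. In the additive fit 4.79% of all genes tested were called lower. HMGCS1, the enzyme before HMG-CoA reductase, was at 273 to 312 CPM in the controls and 129.9 to 263 with shRNA in Jurkat, and 711 to 779 and 382 to 635 in HSB-2 (log2 fold change -0.57 ± 0.15, adjusted p = 0.0216). It moved further with shRNA-4057 than with shRNA-4058 in both lines (-1.15 and -0.21 in Jurkat and -0.93 and -0.23 in HSB-2; hairpin difference adjusted p = 2.84e-13 and 1.17e-10). HSD17B7 (-0.55 ± 0.097), ELOVL6 (-0.48 ± 0.075) and FADS1 (-0.48 ± 0.10; it overlaps FADS2) were the other shared members, and of the 4 only ELOVL6 was called against wild-type cells alone. Fitted by line, 27 of the 30 fell in Jurkat (14.8% of all genes) and 4 in HSB-2, where the share (13.3%) was close to the 13.1% of all genes. An interaction was called for 13 (43.3%, against 33.4% of all genes). The number of fallers was 26 with shRNA-4057 alone, 4 with shRNA-4058 alone, 4 against wild-type cells alone, 6 against scrambled cells alone and 8 without Jurkat scrambled replicate 2.

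XBP1, the transcription factor of the unfolded protein response, separated in both lines. In Jurkat, XBP1 was at 69.8 and 66.9 in wild-type, 83.1 and 82.7 in scrambled, 52.7 and 51.5 in shRNA-4057 and 49.2 and 49.3 in shRNA-4058 libraries (CPM). For HSB-2 the levels were 194 and 191 in wild-type, 205 and 208 in scrambled, 107 and 107 in shRNA-4057 and 117 and 118 in shRNA-4058 libraries. All shRNA libraries were lower (log2 fold change -0.70 ± 0.061, adjusted p = 7.45e-06). CALR, the lectin chaperone calreticulin, was at 729.8 to 956 CPM in the controls and 503 to 592 with shRNA in Jurkat, and 535 to 564 and 373 to 416 in HSB-2 (log2 fold change -0.54 ± 0.064, adjusted p = 0.000168). Of 25 unfolded protein and heat shock genes, XBP1 and DNAJB9 fell, a count that was 5 without Jurkat shRNA-4058 replicate 2 and 1 without 8 other libraries. CALR was the 1 faller of 17 MHC class I presentation genes. Of 30 amino acid stress and ATF4 genes, STC2 (0.90 ± 0.16) and CHAC1 rose and ALDH18A1, a proline synthesis enzyme, fell (-0.35 ± 0.058); STC2 and ALDH18A1 were shared. The glucose transporter SLC2A3 was the 1 riser of 30 glycolysis and hypoxia genes (0.75 ± 0.11). Beside these counts of the additive fit, 3.69% of all genes tested were called higher and 4.79% lower. Fitted by line, 12 of the 30 glycolysis and hypoxia genes rose in HSB-2 and 0 fell (13.8% and 13.1% of all genes). In Jurkat 2 of them rose and 13 fell (10.2% and 14.8% of all genes).

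Partners and substrates of USP7 and some further lists were examined next. Over all genes tested, 3.69% were called higher and 4.79% lower in the additive fit. Of 24 USP7 partners and p53 regulators, MDM4, an inhibitor of p53, fell and was shared, at 194 to 199.8 CPM in the controls and 167 to 178 with shRNA in Jurkat, and 145 to 171 and 128 to 145 in HSB-2 (log2 fold change -0.20 ± 0.046, adjusted p = 0.0132). In HSB-2 its highest shRNA library was at 144.7 CPM and its lowest control at 145.3 CPM, and it was not called with wild-type cells alone or with shRNA-4057 alone. Of 28 p53 targets, 3 rose (AEN, XPC and PLK2) and the exonuclease AEN was shared (0.37 ± 0.060); 23 of the 28 rose in HSB-2 (13.8% of all genes) and 3 in Jurkat, where 7 fell. PLK2 was near the limit of detection, at 0.00 to 0.0111 CPM in the controls and 0.00 to 0.0158 with shRNA in Jurkat. In HSB-2 PLK2 was at 0.0161 to 0.0398 CPM in the controls and 0.0740 to 0.261 with shRNA. The additive count of p53 targets was 5 without Jurkat scrambled replicate 2, Jurkat shRNA-4058 replicate 1, HSB-2 WT replicate 1 or HSB-2 shRNA-4058 replicate 2, 1 without HSB-2 scrambled replicate 1, and 7 in DESeq2. Of 45 other ubiquitin-specific proteases, USP44 fell and was shared (-0.60 ± 0.11). DNA replication genes gave 4 fallers of 40, of which CDC45 (-0.33 ± 0.059), RFC4 (-0.19 ± 0.047) and ORC6 (-0.20 ± 0.051) were shared, and RRM2 rose. The fallers numbered 1 without Jurkat scrambled replicate 2, HSB-2 WT replicate 1 or HSB-2 shRNA-4058 replicate 2, 2 without HSB-2 shRNA-4058 replicate 1, and 0 against wild-type cells alone (edgeR; 14 had an unadjusted p under 0.05 against all controls). Of 25 lysosome and autophagy genes, 3 rose and 1 fell, and LAMP1 was shared (0.17 ± 0.045); with 1 library left out 1 to 4 rose. Fitted by line, 15 of these 25 rose in HSB-2 and 0 fell (13.8% and 13.1% of all genes). In Jurkat 3 of them rose and 6 fell (10.2% and 14.8% of all genes). RFC4, ORC6 and LAMP1 were called in 20, 18 and 18 of the 28 alternatives.

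Other lists gave no shared gene, or 1 named above. Their counts stand beside 3.69% of all genes tested called higher and 4.79% called lower. Proteasome subunits had 3 fallers of 30, Polycomb genes 2 risers of 31, interferon response genes 2 risers and 1 faller of 33, mitotic genes 2 risers of 30, and BCL2 family genes 1 riser and 2 fallers of 16. These counts moved with single libraries. Proteasome fallers numbered 1 without Jurkat scrambled replicate 2, HSB-2 WT replicate 1 or HSB-2 shRNA-4058 replicate 2, and Polycomb risers 4 without Jurkat scrambled replicate 2 and otherwise 1 to 2. With 1 library left out, interferon genes had 0 to 2 risers and 0 to 1 fallers, mitotic genes 1 to 3 risers, and BCL2 family genes 0 to 1 risers and 1 to 2 fallers. Against wild-type cells alone proteasome and interferon genes gave 0 calls (edgeR; 7 proteasome and 5 interferon genes had an unadjusted p under 0.05 against all controls). Fitted by line, 16 interferon genes rose and 1 fell in HSB-2, while 0 rose and 10 fell in Jurkat. For mitotic genes 15 rose and 1 fell in HSB-2, and 1 rose and 8 fell in Jurkat. BCL2 family genes had 6 risers and 2 fallers in HSB-2, and 0 and 5 in Jurkat. By line, 13.8% of all genes rose and 13.1% fell in HSB-2, and 10.2% and 14.8% in Jurkat. Of 20 NOTCH1 and MYC pathway genes, 2 rose and 2 fell, with TRIB2 shared. Oxidative phosphorylation genes had 7 fallers of 32, none shared, and this count was 0 against wild-type cells alone (edgeR; 15 had an unadjusted p under 0.05 against all controls), 2 without HSB-2 shRNA-4058 replicate 2, and 3 to 6 without any other library. Fitted by line, 28 of these 32 fell in Jurkat and 0 rose, while 4 rose in HSB-2 and 0 fell. An interaction was called for 21 of them (65.6%, against 33.4% of all genes). The 78 cytosolic ribosomal protein genes gave 0 calls in the additive fit with edgeR and with DESeq2, and 13 had an unadjusted p under 0.05, all lower; with scrambled cells alone as controls 7 were called lower. Within the lines they did move: 75 fell in Jurkat (14.8% of all genes) and 30 rose in HSB-2 (13.8%), and 44 were outside the controls in opposite directions. In the additive fit the 10 T-ALL markers gave 0 calls with edgeR and DESeq2 (2 had an unadjusted p under 0.05), and CD79B was the 1 faller of 10 tested markers of other cell types. Fitted by line, 6 of the 10 T-ALL markers rose in HSB-2 and 0 fell, while 2 rose and 3 fell in Jurkat. An interaction was called for 9 of the T-ALL markers (90.0%, against 33.4% of all genes).

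**Figure D4:**
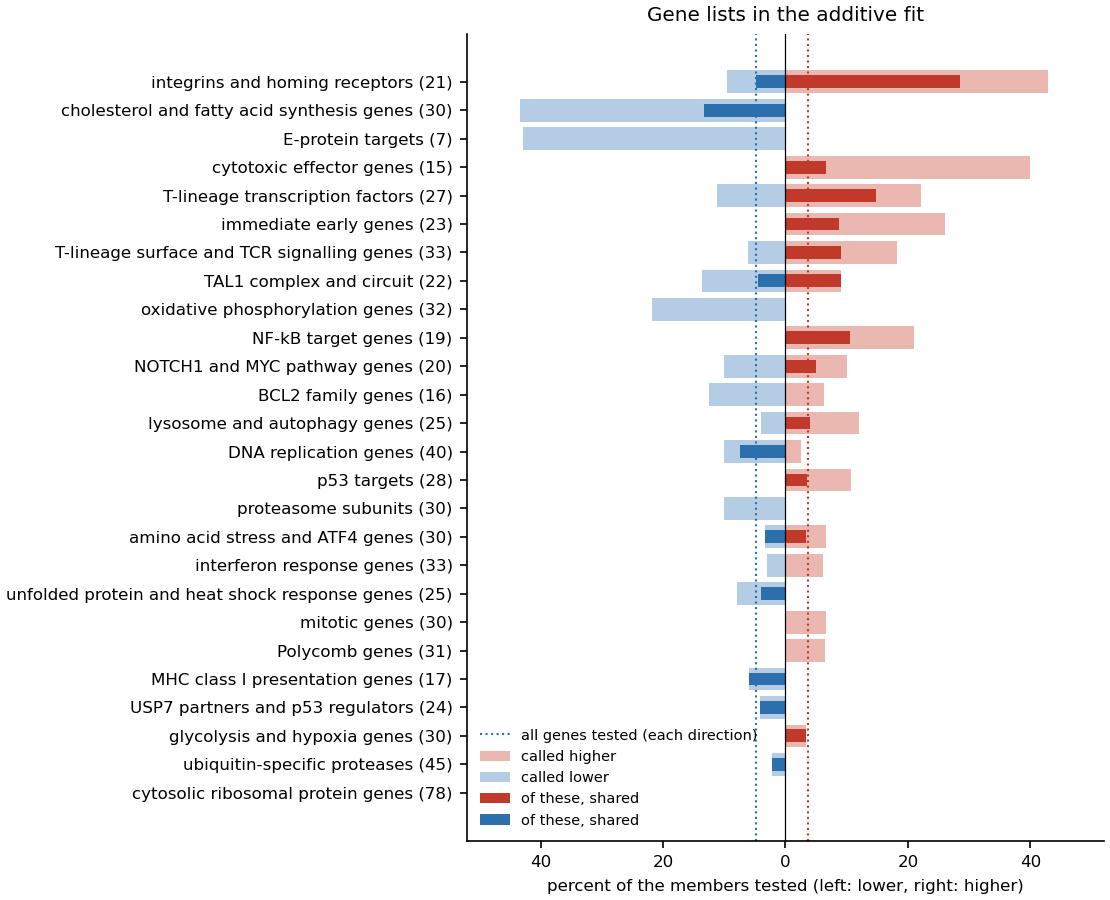
Percent of the tested members of each gene list (number in brackets) called higher (right) or lower (left) in the additive fit, with shared members as narrow dark bars and the share over all genes tested as dotted lines (3.69% higher, 4.79% lower). Integrins and homing receptors have the longest bar of shared risers (6 of 21) and cholesterol and fatty acid synthesis genes that of shared fallers (4 of 30).

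The lines and hairpins were then compared within the shared set. The effects of the lines differed (interaction, edgeR) for 92 of the 592 shared genes (15.5%) against 33.4% of all genes; the rule asks for the same direction in both lines and is not independent of this contrast. Of the 92, 50 moved further in HSB-2 and 42 in Jurkat. In Jurkat, shRNA-4057 and shRNA-4058 differed for 48.8% of shared genes and 33.9% of all genes tested; 229 shared genes moved further with shRNA-4057 and 60 with shRNA-4058. In HSB-2 they differed for 33.4% of shared genes and 24.8% of all; 56 moved further with shRNA-4057 and 142 with shRNA-4058. Over all genes, 17.7% in Jurkat and 10.5% in HSB-2 were called at a higher level with shRNA-4057 than with shRNA-4058. The all-gene count in HSB-2 was 3713 rather than 5716 without HSB-2 shRNA-4057 replicate 2. The smallest of the 4 effects was that of shRNA-4058 in Jurkat for 258 of the 592 genes.

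Scrambled cells differed from wild-type cells for 5964 genes in Jurkat (25.9%) and 7857 in HSB-2 (34.1%). Among shared genes these were 199 and 332, and in 161 and 298 of them the scrambled cells moved away from the shRNA direction. The rule requires the shRNA libraries to lie outside both kinds of control and so is not independent of this split. For the median shared higher gene, shRNA cells had 1.35 times the wild-type and 1.44 times the scrambled level in Jurkat, and 1.31 and 1.58 times in HSB-2. For the median shared lower gene, wild-type cells had 1.28 and scrambled cells 1.32 times the shRNA level in Jurkat, and 1.23 and 1.33 times in HSB-2. With wild-type cells alone as controls, 383 genes were called higher and 292 lower, and 299 of the 592 shared genes were still called.

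By gene type, 88.9% of the shared genes were protein-coding against 61.4% of all tested, and 39 were long noncoding RNAs. Shared higher protein-coding genes had a median transcript GC content of 53.1% and shared lower ones 45.6%, with 48.9% over all tested, and the median transcript lengths were 4616, 3916 and 3792.5 bases. With an offset for GC content and length, 541 of the 592 were still called, and 293 were again outside all controls in both lines. The 3 shared genes just inside the threshold were ATP5F1E (adjusted p = 0.0490), UBE4A (0.0494) and KIR3DL2 (0.0497), and the 3 just outside were TFIP11 (0.05000086), RPTOR (0.0509) and SMPD2 (0.0521).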

How the data were processed

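Strand-specific libraries of ribosome-depleted total RNA were sequenced on a NovaSeq. The authors mapped read pairs with an in-house BWA pipeline (GRCh37-lite and transcript databases) and counted reads per gene with HTSeq 0.6.1p1; the labels also list STAR and CASAVA. The deposited values are raw counts per gene in 16 libraries, neither normalised nor pooled. Strand setting and annotation release are not given in the sources used here, so counts of overlapping genes, antisense genes and near-identical copies are uncertain. The table pairs no symbols with its 57820 identifiers; 55538 were named by identifier from GENCODE (GRCh37 positions), and the rest (3.57 to 6.93% of counts per library) stayed unnamed. Lists used current symbols or synonyms.

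Counts were tested in R 4.3.3 with edgeR 4.0.16: filterByExpr on the 8 groups, TMM scaling (factors 0.882 to 1.15), quasi-likelihood F-test, two-sided, Benjamini-Hochberg over all 23063 genes tested, called at adjusted p under 0.05. SE is the absolute log2 fold change divided by the square root of F. Line effects and their difference came from a fit with a line by knock-down interaction; hairpin and scrambled comparisons from a fit of 8 groups, each hairpin against the mean of wild-type and scrambled cells. Levels are TMM-normalised CPM. Named were USP7, the 12 shared genes each way with the largest weakest hairpin effect (mean of at least 1 CPM in each line), up to 4 shared members per list, and 3 genes either side of the threshold; further called list members were named after their values were seen, and 1 called list member is not reported here. The members and lists were chosen with earlier results of these data known. Replicates differed by more than sampling noise in every group (chi-square per degree of freedom 5.41 to 20.2). Alternatives were RLE scaling, other count filters, a replicate block, each kind of control or each hairpin alone, summed libraries, averaged group fits, an offset for GC content and length, limma voom 3.58.1 with groups as a block, DESeq2 1.42.0 and each library left out. The procedure was tested on simulated data.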

Additional observations from a re-analysis of the deposited data

Results flagged for a closer look

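Among the 55 named genes, the effect of USP7 shRNA differed between the lines for 4 by the interaction test (edgeR, HSB-2 minus Jurkat, log2). CD40LG rose further in HSB-2 (1.53 ± 0.38, adjusted p = 0.00507), as did STC2 (0.74 ± 0.25, adjusted p = 0.0311) and ETS1 (0.33 ± 0.10, adjusted p = 0.0189). PLEKHG3 rose further in Jurkat (-1.39 ± 0.52, adjusted p = 0.0483). The 4 had risen in all 8 shRNA libraries relative to the controls of their line, so the difference is one of size.

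In 2 of 220 groups of 4 libraries, 1 library stood apart from the other 3. Chance alone marks about 5% of groups of 4 like libraries. Each group here joined wild-type with scrambled libraries or 2 hairpins, so that rate does not apply. LYL1 in Jurkat shRNA cells was at 2.39, 2.99967, 2.34 and 2.32 CPM, with the highest library's gap to its neighbour at 0.888 of the range. RFC4 in HSB-2 shRNA cells was at 48.8, 48.1, 48.1 and 44.3 CPM, with the lowest library's gap at 0.856 of the range.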

How the results depend on the processing

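The 592 shared genes kept the sign of their effect under every alternative, except 1 that changed sign or was not tested with shRNA-4058 alone. With at least 10 counts in every library, 42 were not tested. Of the 592, 176 (90 higher, 86 lower) were called under each of the 28 alternatives other than summed libraries, and no named gene changed direction. The rule asks for all shRNA libraries outside all controls in both lines, so a kept sign was largely fixed by the choice of genes. With the libraries of each group summed, 1 gene was called higher and 0 lower, 1 higher and 0 lower were shared, the lines differed for 2 genes, and USP7 (-0.80) had an adjusted p of 0.33. With 8 groups fitted separately and averaged, 4289 were called higher and 5653 lower; the construction counts only the spread between libraries of a group as error. limma voom with groups as a random block (correlation within groups 0.77) called 475 higher and 466 lower, with 169 and 190 shared. DESeq2 called 1489 higher and 1391 lower, with 330 and 271 shared. RLE scaling called 969 higher and 898 lower, with 313 and 264 shared. The offset for GC content and length called 1167 higher and 1108 lower, with 377 and 241 shared. The larger number of lower genes in the main fit was therefore not kept under these settings.

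Scrambled cells alone as controls gave 752 shared higher and 851 shared lower genes, from fewer libraries to lie outside of. Wild-type cells alone gave 383 genes called higher, 292 lower and 4338 that differed between the lines. With shRNA-4057 alone 835 higher and 1149 lower genes were shared, and with shRNA-4058 alone 343 were called higher and 617 lower, with 541 shared lower. The causes were not tested.

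Leaving out each library in turn gave 545 to 1108 genes called higher, 644 to 1174 lower, 235 to 411 shared higher and 242 to 393 shared lower, with USP7 between -0.85 and -0.73, 6433 to 7792 genes that differed between the lines, 5899 to 7854 and 3713 to 6045 between the hairpins in Jurkat and HSB-2, and 4036 to 5992 and 5466 to 7899 between scrambled and wild-type cells. Without Jurkat scrambled replicate 2, HSB-2 WT replicate 1 or HSB-2 shRNA-4058 replicate 2, 58.2%, 58.2% and 55.3% of the calls were higher, against 43.5% with all libraries. The count filter was rerun each time a library was left out. It then kept 24115 to 24259 genes, against 23063 with all libraries, and fewer libraries had to lie apart for a shared gene. These counts therefore do not show the part of the left-out library alone.

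The replicate block called 691 genes higher and 882 lower, with 567 shared. Replicate numbers paired the samples only by name: correlations of same-numbered libraries across the 28 pairs of groups were -0.17 to 0.16 (median -0.006), and 6 exceeded 0.1. Depth limits genes near or under 0.0392 CPM, such as IL7R, PTCRA and KLRD1 in HSB-2 and PLK2 in Jurkat.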

Other observations

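KLF2, S1PR1, CCR7 and FOXO1 are background members of 1 T-cell trafficking program, and all 4 were shared risers, while IL7R, also known as a member of it, was called lower. IL7R was measured in Jurkat (7.59 to 10.3 CPM in the controls and 2.29 to 5.17 with shRNA in Jurkat, and 0.00 to 0.0219 and 0.00 to 0.00481 in HSB-2).

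CD40LG and LINC00892 are neighbours on chromosome X and rose in all 8 shRNA libraries. Their effects were 1.002 and 1.24 in Jurkat and 2.53 and 2.15 in HSB-2 (log2 fold change).

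In both lines the scrambled cells often lay beyond wild-type cells on the side away from the shRNA. Among the 12 leading risers this was called for 9 in Jurkat and 12 in HSB-2, and among the 12 leading fallers for 6 and 10. Scrambled cells lay in the shRNA direction for 2 of the fallers in Jurkat and 1 in HSB-2. The rule for shared genes is not independent of this pattern. CDK5RAP3 was among the genes that differed from it, with scrambled cells at 162 and 162 CPM beside wild-type cells at 163 and 165 CPM in Jurkat, and below them in HSB-2.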
